A study of Mus musculus with 6 samples.

Results

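Described here are 10 genes that mark the 2 cell layers of the brain's small vessels, out of 18160 genes in the deposited table. They were taken by name from a list: Cldn5, Pecam1, Flt1, Slco1a4, Abcb1a and Slc2a1 for endothelial cells (6 genes), and Pdgfrb, Rgs5, Abcc9 and Kcnj8 for the mural cells that wrap them (4 genes). All 10 were in the table and all 10 passed the filter on low values, which asked for a mean of 10 normalized counts or more. The samples are RNA sequencing libraries of prefrontal cortex from adult C57BL/6J mice at postnatal day 56, 3 wild-type and 3 heterozygous for Cyfip2. The labels call the heterozygotes Cyfip2 mutants and do not say which allele they carry, whether a sample is 1 animal or a pool, or which sex it was, so the spread behind every p-value is that of these libraries and may be technical. The comparison asks whether the vascular share of the cortical transcriptome differs between the genotypes, and whether endothelial and mural genes do so alike.

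Endothelial cells line the vessel and, in the brain, form the blood-brain barrier: tight junctions seal the gaps between cells, efflux pumps return drugs and other lipophilic compounds to the blood, and carriers bring in glucose and hormones. Pericytes and smooth muscle cells, together called mural cells, sit on the outer face of the endothelium, regulate vessel diameter and help to keep the barrier closed. Pericytes are recruited to the vessel by PDGF-B from the endothelium acting on the receptor PDGFRB. CYFIP2 is a subunit of the WAVE complex, which drives the branching of actin filaments.

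The deposited values are normalized counts, that is, read estimates per gene divided by scaling factors, and they summed to 36.4 to 37.1 M per sample (M for 1e+06). From the spacing of the lowest values, depth was estimated at 27.2 to 48.1 M reads. Cyfip2 checked the labels: its normalized count was 43174 to 45627 in wild-type and 28356 to 29567 in heterozygous samples (adjusted p = 0.0027 by limma-trend). The 10 neuron markers used as a check of the tissue were all present, at mean normalized counts of 4873 or more. Wild-type sample 1 stood apart in vascular genes and was the lowest of the 6 samples for 7 of the 10 markers, against 18.4% of all genes tested; each summary over the markers is therefore also given without it. Heterozygous sample 2 was the highest for 6 of the 10 (16.6% of all genes) and heterozygous sample 1 for 2 of the 10 (19.3% of all genes).

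None of the 10 vascular markers passed an adjusted p of 0.05 between heterozygotes and wild type by limma-trend, where 0.0132% of the 15151 genes tested did. None had an unadjusted p under 0.05 either, against 5.07% of all genes, and the adjusted p values lay between 0.95 and 1.00. In all 10 genes the samples of the genotypes overlapped, while 10.5% of all genes had no overlap. Of the 10 log2 fold changes 9 were above 0, against 50.8% of all genes, with a median of 0.09 over the 10 genes and 0.002 over all genes tested. Without wild-type sample 1, 6 of the 10 were above 0 and the median was 0.007. With heterozygous sample 2 left out, 9 of 10 stayed above 0 at a median of 0.04, and leaving out wild-type sample 2 gave 9 of 10 and 0.14. The 95% intervals of the individual genes reached from 81.1% of the wild-type level, for Kcnj8, to 133% of it, for Abcc9. They were narrowest for Abcb1a, at 94.1% to 115% of wild type. In whole tissue, a change in the number of vascular cells and a change in RNA per vascular cell cannot be told apart, in either direction.

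**Figure D1:**
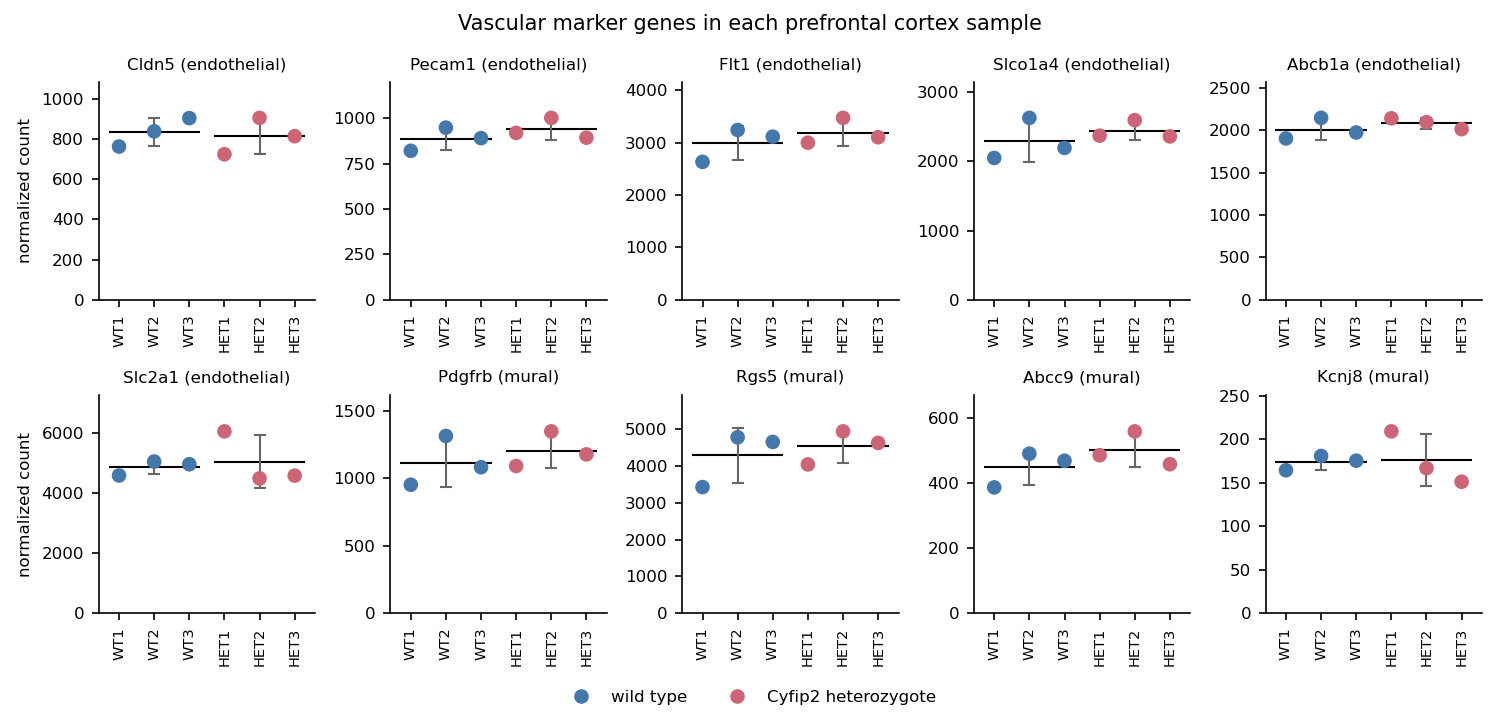
Normalized count of each vascular marker (y axis, from 0) in each sample (x axis; points, blue for wild type and red for Cyfip2 heterozygotes), with the mean (line) and SD (bar) of 3 samples. The genotypes overlap in all 10 panels, wild-type sample 1 is the lowest point in 7 of them, and heterozygous sample 1 is the highest for Slc2a1 and Kcnj8.

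Junction, adhesion and receptor genes of the endothelium came first. Cldn5 encodes claudin-5, the main sealing protein of the tight junctions at the blood-brain barrier (ENSMUSG00000041378, chromosome 16, 18776847 to 18778262 on GRCm38, plus strand). Its normalized counts were 763, 838 and 904 in wild-type samples 1 to 3 and 724, 905 and 814 in heterozygous samples 1 to 3. The lowest and the highest value were both heterozygous, and wild-type sample 1 lay next to the bottom. Cldn5 was the only marker with a mean below wild type: 835 ± 70.8 against 815 ± 90.6 (SD, n = 3 each). Heterozygotes were at 97.4% of the wild-type level (95% interval 83.7% to 113%).

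Pecam1 encodes an adhesion molecule at endothelial cell contacts, which leukocytes and platelets also carry (chromosome 11, 106654217 to 106750628, minus strand). Samples of the wild type were at 822, 950 and 892 normalized counts and heterozygous samples at 921, 1003 and 894. Wild-type sample 1 was lowest and heterozygous sample 2 highest, while the other 4 samples lay between 892 and 950 with the genotypes mixed. The log2 fold change was 0.08 ± 0.08 (SE). Flt1 encodes a VEGF receptor that binds VEGF-A tightly and limits its signal (chromosome 5, 147561604 to 147726011, minus strand). It was measured at 2630, 3240 and 3113 normalized counts in wild-type and 2998, 3471 and 3101 in heterozygous samples. Here too wild-type sample 1 was lowest and heterozygous sample 2 highest, a 1.32-fold span. The log2 fold change was 0.09 ± 0.09 (SE), and 0.004 without wild-type sample 1.

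Transporters of the barrier made up the rest of the endothelial markers. Slco1a4 encodes an organic anion carrier that moves steroid conjugates and other anions (chromosome 6, 141805440 to 141856199, minus strand). Values of 2049, 2629 and 2194 normalized counts in wild-type samples stood beside 2371, 2596 and 2361 in heterozygous ones. The wild-type samples held both extremes, and the SD was 302 among them against 133 among heterozygotes. Its log2 fold change of 0.10 ± 0.09 (SE) was the largest of the 6 endothelial genes, and was 0.02 without wild-type sample 1.

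Abcb1a encodes the P-glycoprotein pump of the mouse blood-brain barrier (chromosome 5, 8660077 to 8748575, plus strand). Its normalized counts were 1904, 2147 and 1974 in wild-type and 2142, 2096 and 2014 in heterozygous samples, which made it the steadiest of the 10 markers, with a 1.13-fold span. Its log2 fold change was 0.05 ± 0.06 (SE). Abcb1a and its neighbour Abcb1b, 49.6 kb away on the same strand, are close copies: 21.4% of the 31-base words of the longest Abcb1a transcript also occur in Abcb1b. Reads from those stretches cannot be assigned with certainty. Abcb1b was listed at 130 to 180 normalized counts over the 6 samples. Slco1a4 shares 5.75% of its words with Slco1a5, which had at most 3.24 normalized counts in any sample. Counting words shared with any other gene, the part was 23.2% for Abcb1a and 8.49% for Slco1a4. Of the other 8 markers, 6 shared no such word with another gene, and Rgs5 and Abcc9 shared 0.0738% and 1.59%.

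Slc2a1, the main glucose carrier of barrier endothelium, is also made by astrocytes (chromosome 4, 119108711 to 119137983, plus strand). The samples were at 4581, 5043 and 4954 normalized counts in wild type and 6048, 4483 and 4576 in heterozygotes. Heterozygous sample 1 stood above all others, and the other heterozygous samples were the lowest of the 6. The means were 4860 ± 245 and 5036 ± 878 (SD, n = 3 each), with a log2 fold change of 0.04 ± 0.10 (SE). Without heterozygous sample 1 the log2 fold change was -0.10. Astrocyte markers were also highest in heterozygous sample 1, with a mean centred log2 level of 0.14 against -0.14 to 0.07 in the other samples; their part in the Slc2a1 value was not tested.

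Among mural genes, Pdgfrb encodes the PDGF receptor through which pericytes are recruited, and fibroblasts express it as well (chromosome 18, 61045150 to 61085061, plus strand). Normalized counts of 951, 1312 and 1081 were measured in wild-type and 1090, 1346 and 1176 in heterozygous samples. Wild-type sample 1 was lowest, and heterozygous sample 2 lay just above wild-type sample 2. The log2 fold change was 0.12 ± 0.12 (SE), with a 95% interval of -0.15 to 0.38, and was 0.01 without wild-type sample 1. Rgs5 encodes a brake on G-protein signalling and is an abundant pericyte transcript (chromosome 1, 169655501 to 169695813, plus strand). Rgs5 stood at 3424, 4776 and 4650 normalized counts in wild-type and 4038, 4937 and 4624 in heterozygous samples. It had the widest SD over the 6 samples of any marker, 0.20 on the log2 scale, and its log2 fold change of 0.09 ± 0.12 (SE) turned to -0.06 without wild-type sample 1.

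Abcc9 and Kcnj8 encode the regulatory sulfonylurea-receptor subunit and the pore subunit of the ATP-sensitive potassium channel of pericytes, which opens when ATP runs low and hyperpolarizes the cell. The genes lie 16.2 kb apart on the minus strand of chromosome 6, Kcnj8 at 142564837 to 142571614 and Abcc9 at 142587862 to 142702315. Normalized counts of Abcc9 were 387, 490 and 468 in wild-type and 485, 559 and 458 in heterozygous samples, again lowest in wild-type sample 1 and highest in heterozygous sample 2. Abcc9 had the largest log2 fold change of the 10 markers, 0.16 ± 0.11 (SE; adjusted p = 0.95 by limma-trend), and 0.06 without wild-type sample 1.

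Kcnj8 had other extremes than its partner. Its values were 165, 181 and 176 normalized counts in wild-type and 209, 167 and 151 in heterozygous samples, so that heterozygous samples 1 and 3 held the highest and the lowest value. The means were 174 ± 8.37 and 176 ± 30.0 (SD, n = 3 each) and the log2 fold change was 0.006 ± 0.14 (SE). Kcnj8 was the lowest marker in reads, with about 129 in the sample with the fewest implied reads, for which the counting error alone is 8.81%. Because depth differed, that sample is not the one with the lowest normalized count. The ratio of Kcnj8 to Abcc9 was 0.426, 0.369 and 0.375 in wild-type and 0.431, 0.299 and 0.331 in heterozygous samples, and the genotypes overlapped. For the counterparts of the channel in neurons, the log2 fold change ± SE was -0.02 ± 0.07 (Kcnj11) and 0.003 ± 0.08 (Abcc8).

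**Figure D2:**
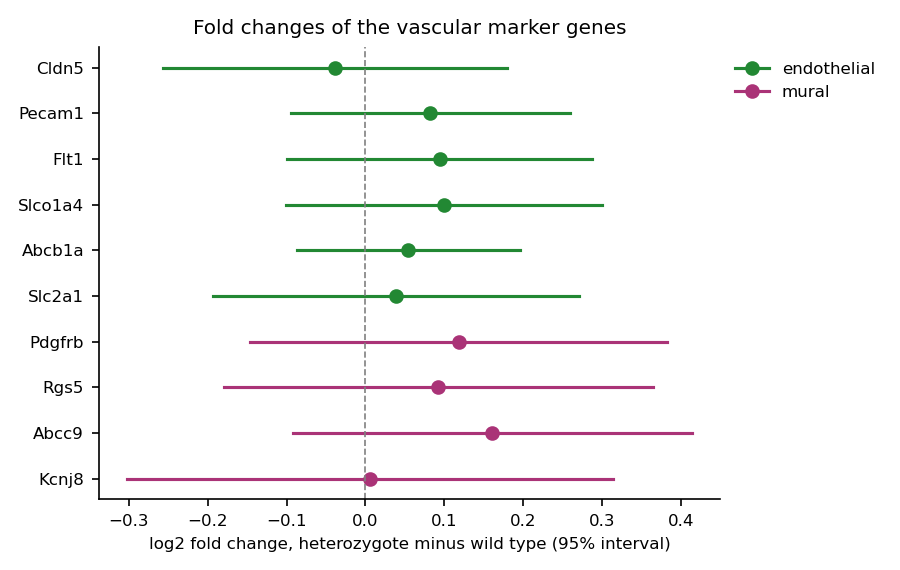
Log2 fold change of each vascular marker, heterozygote minus wild type (x axis), with its 95% interval from the moderated model (lines), for endothelial (green) and mural (purple) genes. All 10 intervals include 0, and the widest belong to the mural genes, with the widest of all for Kcnj8.

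Promoter sequence is shown for 5 markers, chosen by their extremes. Flt1, Rgs5 and Abcc9 were lowest in wild-type sample 1 and highest in heterozygous sample 2, while Slc2a1 and Kcnj8 were not. Any link between the sequences and these values was not tested. RefSeq promoter windows on GRCm38.p6 matched 8 of the 10 markers, and Pecam1 and Pdgfrb were not matched. Each run is the 250 bases before the RefSeq start, written 5′ to 3′ on the strand of the gene, and stops where the GENCODE gene begins (209 bases printed for Abcc9 and 216 for Slc2a1). Capitals mark matches, on either strand, to any of 6 short motifs. The printed runs are chr5:147726012-147726261 (minus strand) for Flt1, chr1:169655251-169655500 (plus) for Rgs5, chr6:142702316-142702524 (minus) for Abcc9, chr4:119108495-119108710 (plus) for Slc2a1 and chr6:142571615-142571864 (minus) for Kcnj8.
Flt1: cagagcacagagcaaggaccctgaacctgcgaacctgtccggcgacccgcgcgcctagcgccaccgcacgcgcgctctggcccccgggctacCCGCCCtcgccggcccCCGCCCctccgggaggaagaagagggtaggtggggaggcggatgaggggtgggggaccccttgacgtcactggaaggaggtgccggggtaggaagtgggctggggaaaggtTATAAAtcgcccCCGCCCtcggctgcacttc
Rgs5: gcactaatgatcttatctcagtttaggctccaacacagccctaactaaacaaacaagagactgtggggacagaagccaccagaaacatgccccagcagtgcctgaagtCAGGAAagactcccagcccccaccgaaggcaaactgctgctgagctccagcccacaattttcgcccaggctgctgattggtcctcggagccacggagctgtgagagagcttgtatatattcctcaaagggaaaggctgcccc
Abcc9: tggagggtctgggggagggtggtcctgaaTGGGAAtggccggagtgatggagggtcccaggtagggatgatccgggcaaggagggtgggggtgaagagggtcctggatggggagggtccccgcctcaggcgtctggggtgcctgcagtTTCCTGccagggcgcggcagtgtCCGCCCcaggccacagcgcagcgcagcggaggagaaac
Slc2a1: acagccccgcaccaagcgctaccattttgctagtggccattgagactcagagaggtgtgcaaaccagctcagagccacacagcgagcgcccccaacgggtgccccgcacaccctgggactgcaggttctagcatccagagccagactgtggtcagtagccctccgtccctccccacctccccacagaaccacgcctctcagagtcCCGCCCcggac
Kcnj8: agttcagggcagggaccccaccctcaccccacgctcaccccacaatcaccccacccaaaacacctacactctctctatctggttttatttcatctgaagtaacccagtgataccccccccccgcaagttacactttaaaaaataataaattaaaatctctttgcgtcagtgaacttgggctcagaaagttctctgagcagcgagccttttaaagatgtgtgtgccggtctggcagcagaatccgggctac

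For ETS factors, which are central to endothelial genes, 2 forms of the site were used, CCGGAA and CAGGAA. Other forms of the ETS site were not searched for, so a window without these 2 may still hold one. The remaining motifs were TGGGAA (the core of the Notch effector RBPJ), ACGTG (the core of hypoxia-response elements), GGGCGG (the GC box of SP factors) and TATAAA (the TATA box). Of 32851 windows of this length in the table, 12% held CCGGAA, 25.7% CAGGAA, 21.6% TGGGAA, 16.6% ACGTG, 32.7% GGGCGG and 12.4% TATAAA. Flt1 held 3 GC boxes and a TATA box that began 31 bases before the start. Slc2a1 held 2 GC boxes with the hypoxia core ACGTG between them, 36 bases before the start, where the printed run ends within the core and before the second box, and no other marker window held that core. Rgs5 and Abcc9 held 1 CAGGAA each, and Abcc9 also 1 TGGGAA and 1 GC box. No motif was found in the windows of Kcnj8, Slco1a4 and Abcb1a, and Cldn5 had 1 GC box. The Abcb1a window, chr5:8566841-8567090, lies far upstream of the GENCODE start at 8660077, and the bases just before that start were not searched. None of the matches overlapped another, and CCGGAA was in none of the 8 windows.

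Endothelial and mural markers were then set side by side in each sample. Each gene was centred on its mean log2(normalized count + 1) over the 6 samples, and the centred values were averaged over the genes of a set. The endothelial mean was -0.15, 0.07 and -0.004 in wild-type samples 1 to 3 and 0.03, 0.08 and -0.03 in heterozygous samples 1 to 3. The mural mean was -0.25, 0.11 and 0.0002 in wild-type and 0.03, 0.15 and -0.03 in heterozygous samples. Both sets placed the samples in the same order: wild-type 1 lowest, then heterozygous 3, wild-type 3, heterozygous 1, wild-type 2 and heterozygous 2. The mural span was wider, 0.40 against 0.23, and the median SD of single genes over the 6 samples was 0.18 for mural and 0.13 for endothelial markers, against 0.11 for all genes tested.

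Subtracting the mural from the endothelial mean gave 0.10, -0.04 and -0.004 in wild-type and -0.0007, -0.06 and 0.007 in heterozygous samples. The means were 0.02 ± 0.07 and -0.02 ± 0.04 (SD, n = 3 each), a difference of -0.04, which is smaller than the spread between the wild-type samples. It was 0.0008 without wild-type sample 1. The median log2 fold change was 0.07 for the endothelial markers, with 5 of 6 above 0, and 0.11 for the mural markers, with 4 of 4 above 0. Leaving out wild-type sample 1 gave medians of 0.01 and -0.01, with 4 of 6 and 2 of 4 above 0. Without wild-type sample 2 they were 0.12 and 0.20, and with heterozygous sample 2 left out both were 0.04.

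**Figure D3:**
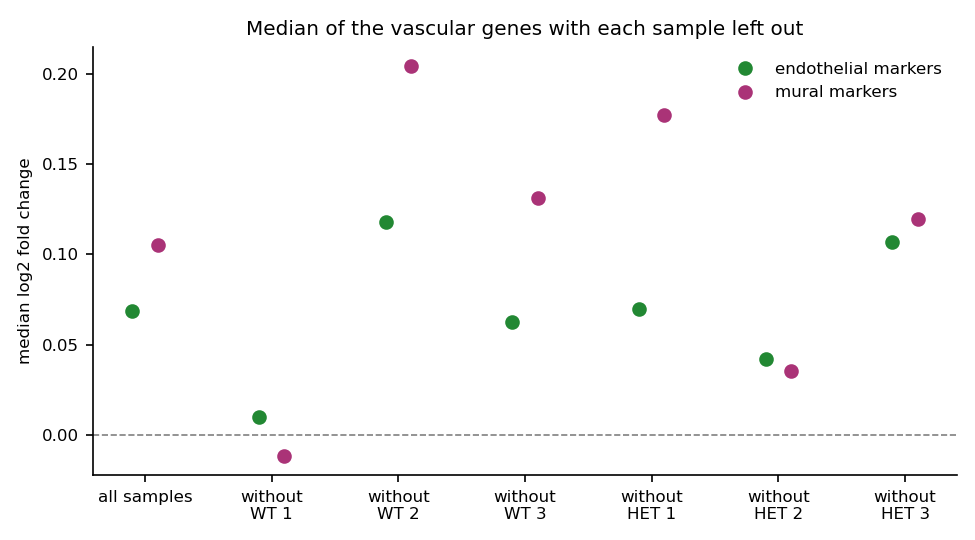
Median log2 fold change (y axis, heterozygote minus wild type) of the 6 endothelial (green) and 4 mural (purple) markers with all samples and with each sample left out in turn (x axis). Both medians are nearest 0 without wild-type sample 1, at 0.01 and -0.01, and highest without wild-type sample 2, at 0.12 and 0.20.

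Levels of different genes were compared per kb of the longest annotated coding transcript. Slc2a1 was highest at 1518 ± 179 normalized counts per kb (SD over 6 samples) and Rgs5 next at 1076 ± 139, and neither overlapped the gene below it. Slco1a4 at 619 ± 58.7 and Cldn5 at 582 ± 52.0 overlapped each other, as did Flt1 at 448 ± 40.4 and Abcb1a at 409 ± 19.7. Pecam1 at 265 ± 17.8 and Pdgfrb at 214 ± 27.7 also overlapped. The channel genes were lowest and overlapped each other, Kcnj8 at 68.6 ± 7.75 and Abcc9 at 63.3 ± 7.43 normalized counts per kb. The pore and the regulatory subunit of the channel were thus within their spread per length, although Abcc9 had the higher count per gene.

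**Figure D4:**
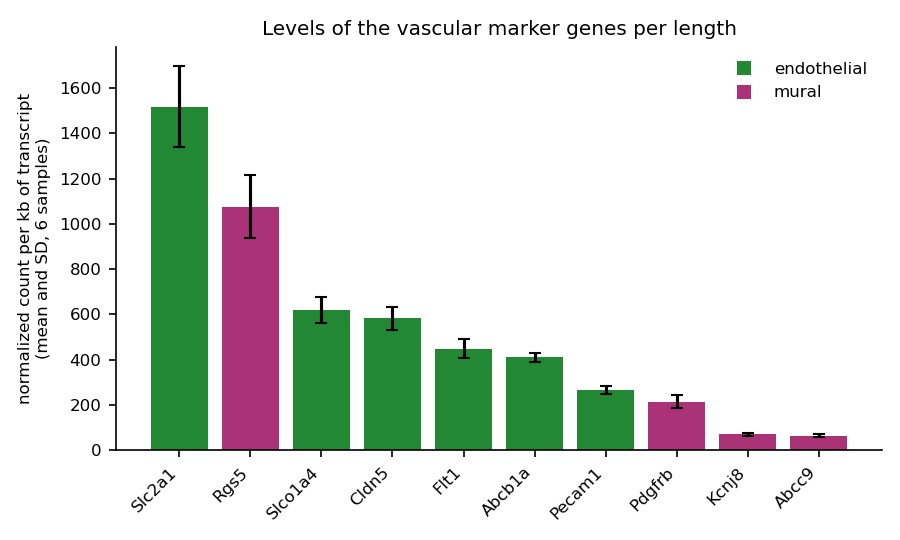
Normalized count per kb of the longest coding transcript (y axis, from 0) of each vascular marker, as the mean (bar) and SD (error bar) over all 6 samples, for endothelial (green) and mural (purple) genes. Slc2a1 and Rgs5 lead, at 1518 and 1076, and Kcnj8 and Abcc9 are lowest, at 68.6 and 63.3.

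The wider lists of endothelial, barrier, pericyte and smooth muscle genes were, like the markers, lowest on average in wild-type sample 1. Of 25 other endothelial genes, 20 had a log2 fold change above 0 and the median was 0.05. Leaving out wild-type sample 1 gave 11 of 25 and a median of -0.008. None passed the adjusted threshold. Fli1, an ETS transcription factor of endothelium and blood cells, came closest in p: its log2 fold change was 0.29 ± 0.15 (SE). Podxl, a sialomucin of the luminal surface, was at 1311, 1320 and 1331 normalized counts in wild-type and 1353, 1448 and 1444 in heterozygous samples, without overlap, at an adjusted p of 0.95 by limma-trend. Of the 25 genes, 2 had no overlap between genotypes, where 10.5% of all genes had none. Of 20 other barrier genes, 9 were above and 11 below wild type, with a median of -0.005. This direction turned with single samples: 6 of 20 and -0.03 with wild-type sample 1 left out, 15 of 20 and 0.04 with wild-type sample 2 left out. Slco1c1, the thyroxine carrier of the barrier, was at -0.01 ± 0.08 (SE) and the amino acid carrier chain Slc3a2 at 0.10 ± 0.06 (SE). The forkhead factor gene Foxq1 was at -0.21 ± 0.16 (SE).

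Other pericyte genes were above wild type for 13 of 18, with a median log2 fold change of 0.09, or 10 of 18 and 0.02 without wild-type sample 1. Leaving out heterozygous sample 2 gave 9 of 18 and a median of -0.009. Of these 18, 2 had no overlap between genotypes, a share near the 10.5% of all genes. Atp13a5, a transport ATPase gene that marks brain pericytes, was at 512, 576 and 541 normalized counts in wild-type and 664, 678 and 607 in heterozygous samples. All 3 heterozygous values lay above the 3 wild-type ones. It did not pass (adjusted p = 0.88 by limma-trend) although its log2 fold change was 0.26 ± 0.08 (SE). The transporter gene Slc6a20a, which meningeal cells also express, was at 919, 948 and 828 in wild-type and 1234, 1089 and 1077 in heterozygous samples, also without overlap; its log2 fold change was 0.33 ± 0.08 (SE; adjusted p = 0.73 by limma-trend). Vascular smooth muscle genes were above wild type for 8 of 13, with a median of 0.04 that was -0.05 without wild-type sample 1 and -0.09 with heterozygous sample 2 left out. Within that list, the matrix gene Tinagl1 was at 0.26 ± 0.12 and the myosin light chain kinase gene Mylk at -0.26 ± 0.13 (log2 fold change ± SE).

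No gene of the signals that act on these cells passed the threshold. Among 16 genes of VEGF and angiopoietin signalling, 10 had a log2 fold change above 0, and the median was 0.02. It was 6 of 16 both with wild-type sample 1 and with heterozygous sample 2 left out, at medians of -0.02 and -0.01. Kdr, the main signalling receptor for VEGF-A, was at 400, 593 and 523 normalized counts in wild-type and 480, 670 and 516 in heterozygous samples, with the same extremes as Flt1, and its log2 fold change was 0.14 ± 0.16 (SE). Flt4, the VEGF-C receptor, was at 0.15 ± 0.14, Angpt1, the pericyte-derived ligand of TIE2, at -0.20 ± 0.16 and Notch1 at -0.14 ± 0.13 (log2 fold change ± SE). Of 5 other PDGF ligand and receptor genes, 2 were above and 3 below wild type, with Pdgfa at -0.04 and Pdgfc at 0.05. Of 14 genes of the Wnt pathway that induces the barrier, 7 were above and 7 below, with a median of 0.002, against 5 of 14 above and -0.04 when wild-type sample 1 was left out. Its receptor gene Fzd4 was at 388, 408 and 370 in wild-type and 412, 413 and 432 normalized counts in heterozygous samples, without overlap. The log2 fold change of Fzd4 was 0.11 ± 0.08 (SE), at an adjusted p of 0.95 by limma-trend. Of the 14 genes, 1 had no overlap between genotypes, where 10.5% of all genes had none. The ligand gene Wnt7b was at 0.14 ± 0.10 (SE). Among 7 tested relatives of the transporter and junction genes, 2 were above wild type, or 4 of 7 with wild-type sample 1 left out; Slco1a6, at 9.49 to 21.4 normalized counts, was at -0.66 ± 0.33 and Cldn10, a claudin gene, at 0.08 ± 0.09 (log2 fold change ± SE).

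**Figure D5:**
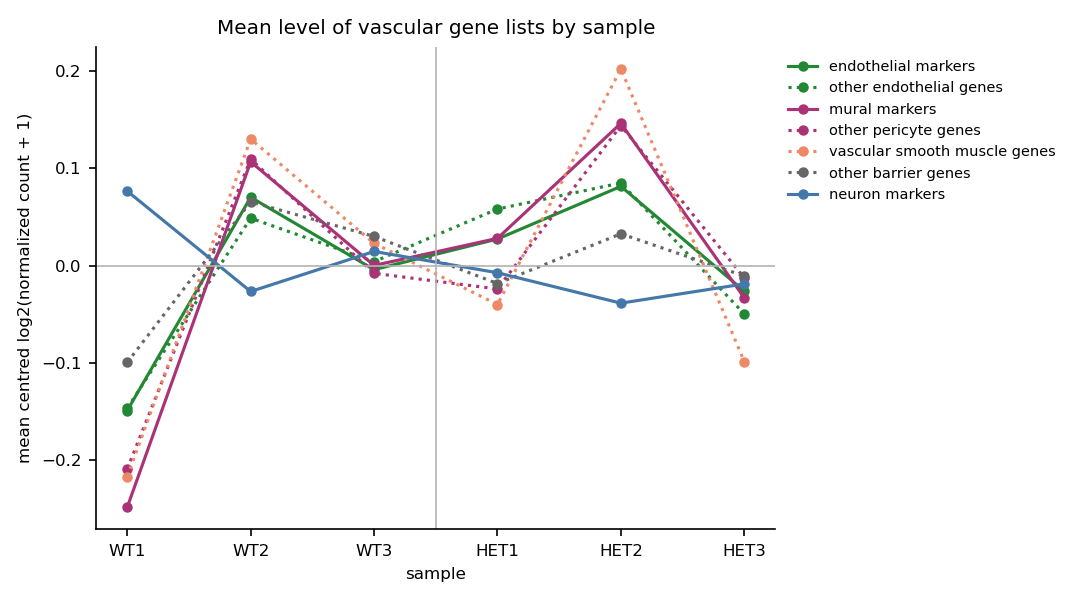
Mean centred log2(normalized count + 1) of each gene list (y axis) in each sample (x axis), for the endothelial and mural markers (solid green and purple), 4 other vascular lists (dotted) and neuron markers (solid blue). All 6 vascular lists are lowest in wild-type sample 1, where the mural markers are at -0.25 and the neuron markers at 0.08.

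Wild-type sample 1 was also the lowest sample in the mean of the astrocyte, microglial, fibroblast and perivascular macrophage lists, at -0.14, -0.15, -0.15 and -0.16, and the highest in neuron and red blood cell markers, at 0.08 and 0.26. Astrocyte markers were above wild type for 9 of 10, with a summed level of 57328 to 65250 normalized counts in wild-type and 61014 to 66905 in heterozygous samples. Fibroblast markers were above wild type for 14 of 15, with a summed level of 28358 to 35176 in wild-type and 31010 to 35752 in heterozygous samples, and microglial markers for 7 of 10, at 12900 to 15995 and 14410 to 15192. Red blood cell markers, a measure of blood left in the vessels, were above wild type for 3 of 5, at 5780 to 7559 in wild-type and 6295 to 6857 in heterozygous samples. With wild-type sample 1 left out, the counts were 6 of 10 for astrocyte, 11 of 15 for fibroblast and 4 of 10 for microglial markers, and the microglial median turned from 0.05 to -0.04. The red blood cell count fell to 0 of 5 with wild-type sample 3 left out and to 1 of 5 with heterozygous sample 1 left out. Choroid plexus and ependymal genes were sparse, with a summed level of 218 to 326 in wild-type and 318 to 420.5 in heterozygous samples; 3 of 5 tested genes were above wild type, Otx2 was not listed, and Clic6 and Ccdc153 were below the filter. Oligodendrocyte markers were above wild type for 0 of 10 and neuron markers for 3 of 10, with medians of -0.13 and -0.07. The oligodendrocyte mean was highest in wild-type sample 2, at 0.35, and leaving that sample out gave 4 of 10 and a median of -0.01, while leaving out wild-type sample 3 gave 0 of 10 and -0.25. Perivascular macrophage markers had a summed level of 492 to 540 in wild-type and 561 to 611 in heterozygous samples, without overlap. Mrc1, at a mean of 293 normalized counts over the 6 samples, weighed most in this sum. The marker next in level, F13a1 (mean 142), overlapped between genotypes and lay slightly below wild type, at -0.04 on the log2 scale. Of the 5 markers, 2 had no overlap by themselves, where 10.5% of all genes had none. The summed neuron markers lacked overlap as well, in the other direction, at 460777 to 478673 in wild-type and 442787 to 451931 in heterozygous samples. How often a sum of this kind lacks overlap was not tested. None of these lists had a gene listed at 0 in all samples. The part of these cells in the vascular values was not tested.

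Genes whose profile over the 6 samples lay closest to the markers were looked up among 12380 other genes with a mean of at least 100. Likeness was the root mean square distance between centred log2 profiles. Closest to the endothelial mean were Timp3, which encodes a matrix-bound protease inhibitor, at a distance of 0.007, then Cnn3, Zdhhc1, Zfp623 and St3gal4 at 0.01 to 0.02. Closest to the mural mean were the glypican gene Gpc5 and Id3, an inhibitor of DNA-binding transcription factors, at 0.02 each, then Crlf2, Gps2 and the integrin gene Itgb5 at 0.03 each. The markers themselves lay at 0.03 (Pecam1) to 0.15 (Slc2a1) from the endothelial mean and at 0.05 (Abcc9) to 0.16 (Kcnj8) from the mural mean, where a flat profile lay at 0.08 and 0.13. Slc2a1 and Cldn5 were thus farther from the endothelial mean, and Kcnj8 farther from the mural mean, than a gene with no variation would be.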

How the data were processed

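RNA was sequenced from prefrontal cortex of 3 wild-type and 3 Cyfip2 heterozygous samples with a stranded mRNA kit, per the labels' protocols. The authors deposited a normalized signal per gene (DESeq-type normalized counts); the submitters' processing notes list Salmon 0.11.2, R 3.6.0, DESeq2 1.19.11 and GRCm38 and give no role for each. The annotation release, the gene filter and any use of transcript length in the scaling are not given in these notes. Taking the most common lowest value of each sample as 1 read, 77.7% to 84.5% of the values up to 2 reads were whole within 0.1 reads, but only 20.9% to 43.4% of those of 10 to 20 reads. Reads could thus not be recovered, and the test foreseen for normalized values was used in place of a count model.

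Symbols came from the GENCODE table (18122 of 18160 identifiers matched) and positions and transcripts from GENCODE M21 on GRCm38. log2(normalized count + 1) was fitted with limma-trend (limma 3.58.1, R 4.3.3), genotype as the only term, for genes with a mean of at least 10. p-values were adjusted by Benjamini-Hochberg over 15151 genes at a threshold of 0.05; fold changes are on that log2 scale, which understates low genes. Exact two-sided permutation tests of 3 against 3 samples, which cannot go below 0.1, gave 0.4 to 1 for the 10 markers. Lists and set means are described without a test. The procedure was tested on simulated libraries. No pair of samples of a genotype agreed within counting noise (mean chi-square per gene 8.86 to 23.9).

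The markers and lists were chosen with earlier results of these data known. Named genes were the 10 markers, Cyfip2, fixed paralogues and partners, the 2 genes of smallest p in each vascular list without a marker, and the 5 closest profiles per set; some further genes were named after their values were seen. Alternatives were a trimmed-mean (TMM) rescaling, other variance models, filters, pseudocounts (0.5 and 5), a threshold of 0.1, array weights, a block for the sample number, and each sample left out in turn.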

Additional observations from a re-analysis of the deposited data

How the results depend on the processing

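No marker passed under any of the 16 alternatives for counts of calls. Over all genes, 1 gene passed in place of 2 when limma shrank without the trend and with a mean of at least 50 as the filter, and 1 to 4 with a sample left out (4 with wild-type sample 1 or heterozygous sample 3 left out, 1 with heterozygous sample 1 left out). With array weights, the log2 fold change of Kcnj8 was -0.051 and that of Slc2a1 -0.011. Leaving out 1 sample moved Cldn5 between -0.117 and 0.044, Kcnj8 between -0.126 and 0.107, Rgs5 between -0.061 and 0.179 and Slc2a1 between -0.100 and 0.116; the cause was not tested. The endothelial median lay between 0.01 and 0.12, the mural median between -0.01 and 0.20 and the endothelial minus mural difference between -0.07 and 0.0008 over the samples left out. TMM rescaling changed no direction. With the sample number as a replicate block, 2 genes and 0 markers passed. The labels do not say whether the numbers pair the samples, and the values could not settle it with 3 samples per genotype. Deviations of same-numbered samples correlated at 0.10, 0.16 and -0.075 over 13312 genes. Wild-type sample 1 correlated best with heterozygous sample 3 (0.14), and wild-type sample 2 with heterozygous sample 2 (0.16). Depth limits Kcnj8 most, where counting error was 8.81% in the sample with the fewest implied reads.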

Other observations

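Perivascular macrophages, which live in the space between vessel and brain tissue, had 4 of 5 markers above wild type, with a median of 0.22 on the log2 scale. This median was 0.13 with wild-type sample 1 left out, 0.11 with heterozygous sample 1 left out and 0.335 with heterozygous sample 3 left out. Mrc1, the mannose receptor gene that marks them, was at 245, 293 and 278 normalized counts in wild-type and 311, 300 and 329 in heterozygous samples. These values did not overlap, but the adjusted p was 0.95 by limma-trend, and 10.5% of all genes had no overlap. The gene was singled out after its values were seen. Genes induced by low oxygen were above wild type for 4 of 11, with a median of -0.02. The direction turned to 6 of 11 both with wild-type sample 1 and with heterozygous sample 2 left out, at medians of 0.02 and 0.04. Pdk1, a kinase gene that turns pyruvate away from mitochondria, was at 3110, 2831 and 2936 in wild-type and 2785, 2663 and 2638 in heterozygous samples, with a log2 fold change of -0.13 ± 0.06 (SE; adjusted p = 0.95 by limma-trend).

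The choroid plexus and ependymal genes lay on both sides of wild type, with 3 of 5 above. Ttr, the transthyretin gene of the choroid plexus, was at 8.43, 66.4 and 71.6 normalized counts in wild-type and 64.3, 174 and 111 in heterozygous samples, lowest in wild-type sample 1. Folr1, a folate receptor gene of the same tissue, had all heterozygous values below the wild-type ones, at 15.4, 20.8 and 12.8 in wild-type and 7.32, 9.66 and 7.62 in heterozygous samples. About 6.67 reads were implied in the sample with the fewest reads of Folr1, for which the counting error alone is 38.7%. Of the 5 tested genes, 1 had no overlap between genotypes, where 10.5% of all genes had none. Kl was at 0.48 ± 0.25, Kcnj13 at 0.18 ± 0.23 and Foxj1, the ciliogenesis factor gene of ependyma, at -0.19 ± 0.15 (log2 fold change ± SE). No gene of the list passed the adjusted threshold by limma-trend. These genes, too, were singled out after their values were seen.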
